A study of Homo sapiens with 6 samples.

Results

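The RNF genes, the numbered RING finger series of human ubiquitin ligases and their relatives, were examined in cholangiocarcinoma cells with raised STUB1. Members were the rows of the expression table whose symbol is RNF followed by a number and at most 1 letter, with pseudogene, antisense and readthrough rows left out. The rule found 79 of the 23569 genes in the table, and 67 of the 79 reached a mean of 0.1 FPKM, the limit for testing, as did 15353 genes in all. RNA was sequenced from TFK1, a cell line that stems from a tumour of the extrahepatic bile duct, in 3 libraries of cells carrying a lentiviral negative control (oeNC) and 3 libraries of cells stably overexpressing STUB1 (oeSTUB1). Both groups were transduced with lentivirus and selected with puromycin, no other treatment was given, and the comparison was made to look for tumour suppressor genes regulated through STUB1, UHRF1 and DNMT1. The study states for its experiments in general that they were independent and repeated, but the sources used here do not say whether the libraries of a group came from separate cultures or from more than 1 transduced population. The p-values therefore measure only the spread between these samples, which may be technical.

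Ubiquitin is passed from an E1 to an E2 enzyme and then, with the help of an E3 ligase, to its target protein. A RING domain binds the charged E2 and brings it to the substrate, and RING-between-RING ligases first take ubiquitin onto a cysteine of their own. STUB1 is an E3 ligase of the related U-box class that works with chaperones on misfolded proteins. The number in an RNF symbol follows the order of naming, so the members share a domain but few tasks. They include ligases of chromatin and DNA repair, of the endoplasmic reticulum, Golgi and endosome membranes, of innate immunity and of growth factor signalling. Depending on the chain that is built, their targets are degraded or change partners and location.

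STUB1 was at 32.9, 33.0 and 30.9 FPKM in oeNC replicates 1, 2 and 3 and at 61.4, 74.97 and 61.9 FPKM in oeSTUB1 replicates 1, 2 and 3, so the groups followed their labels. Library totals recovered from the table lay between 33106564 and 36744521 fragments. Of the 7 bile duct epithelial markers, KRT7, KRT8 and KRT18 were abundant, while KRT19, a defining duct keratin, averaged 0.453 FPKM in oeNC and 2.97 FPKM in oeSTUB1. In sum this list reached 7419 to 7996 FPKM in the oeNC libraries and 4724 to 6263 FPKM in the oeSTUB1 libraries. Most of this sum was KRT8 and KRT18, which were lower in oeSTUB1. EPCAM (5.42 to 7.78 FPKM in oeNC and 2.16 to 3.59 FPKM in oeSTUB1) and CDH1 (60.8 to 65.02 and 22.3 to 37.3) were lower too. KRT19 was higher in oeSTUB1, and so was KRT7 (482 to 527 FPKM in oeNC and 587 to 872 FPKM in oeSTUB1). The groups overlapped for SOX9 (4.33 to 5.54 and 3.96 to 4.68). Markers of fibroblasts (summed FPKM 1.26 to 2.30 in oeNC and 2.00 to 3.83 in oeSTUB1) and endothelium (0.0713 to 0.0973 and 0.0974 to 0.231) were low, with COL1A2, PDGFRA, DCN, VWF, CDH5 and KDR below 0.1 FPKM in every library. The 5 hepatocyte markers summed to 93.6 to 99.4 in oeNC and 32.6 to 51.8 in oeSTUB1, nearly all of it CPS1, while ALB, CYP3A4 and APOA2 were below 0.1 FPKM throughout. The 5 leukocyte markers summed to 28.2 to 28.7 and 20.6 to 21.5, nearly all of it CD68, while PTPRC averaged 0.121 and 0.225 FPKM. The part of these marker shifts in the results on RNF genes was not tested, and in bulk RNA fewer cells of a type and less RNA per cell cannot be told apart. The library oeSTUB1 replicate 2 stood apart from the other 5, with long genes low and short genes high. Its deviation from the mean of all libraries had a Spearman correlation of -0.46 with gene length, against 0.066 to 0.26 in the other libraries. That mean includes replicate 2, so the values of the other libraries depend in part on it. Results that rest on replicate 2 are given with and without it.

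The RNF family was broadly expressed in TFK1 cells. The median of the 67 tested members was 8.38 FPKM, where that of all tested genes was 4.55 FPKM. On this length-scaled measure, 3 members averaged at least 30 FPKM over the 6 libraries, 24 lay between 10 and 30, 30 between 1 and 10, 10 between 0.1 and 1, and 12 below 0.1. RNF10, which ubiquitinates proteins of the small ribosomal subunit, was the highest, at 35.0 ± 0.349 FPKM in the control and 40.5 ± 0.719 FPKM in oeSTUB1 (SD, n = 3 each). Below it in oeNC stood RNF167, a ligase of the endosome and lysosome membrane (27.6 ± 1.32 FPKM), RNF187, a coactivator of c-Jun (27.01 ± 0.896), RNF145, an endoplasmic reticulum ligase of sterol regulation (26.8 ± 0.471), and RNF5, a ligase of endoplasmic reticulum quality control (26.1 ± 0.858; SD, n = 3 each). Neighbours among these 4 differed by less than the larger of their SDs. In oeSTUB1 RNF145 (34.9 ± 1.84), RNF187 (34.2 ± 4.79), RNF167 (32.2 ± 3.13) and RNF114, a zinc finger ligase (28.2 ± 1.85; SD, n = 3 each), followed RNF10.

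**Figure D1:**
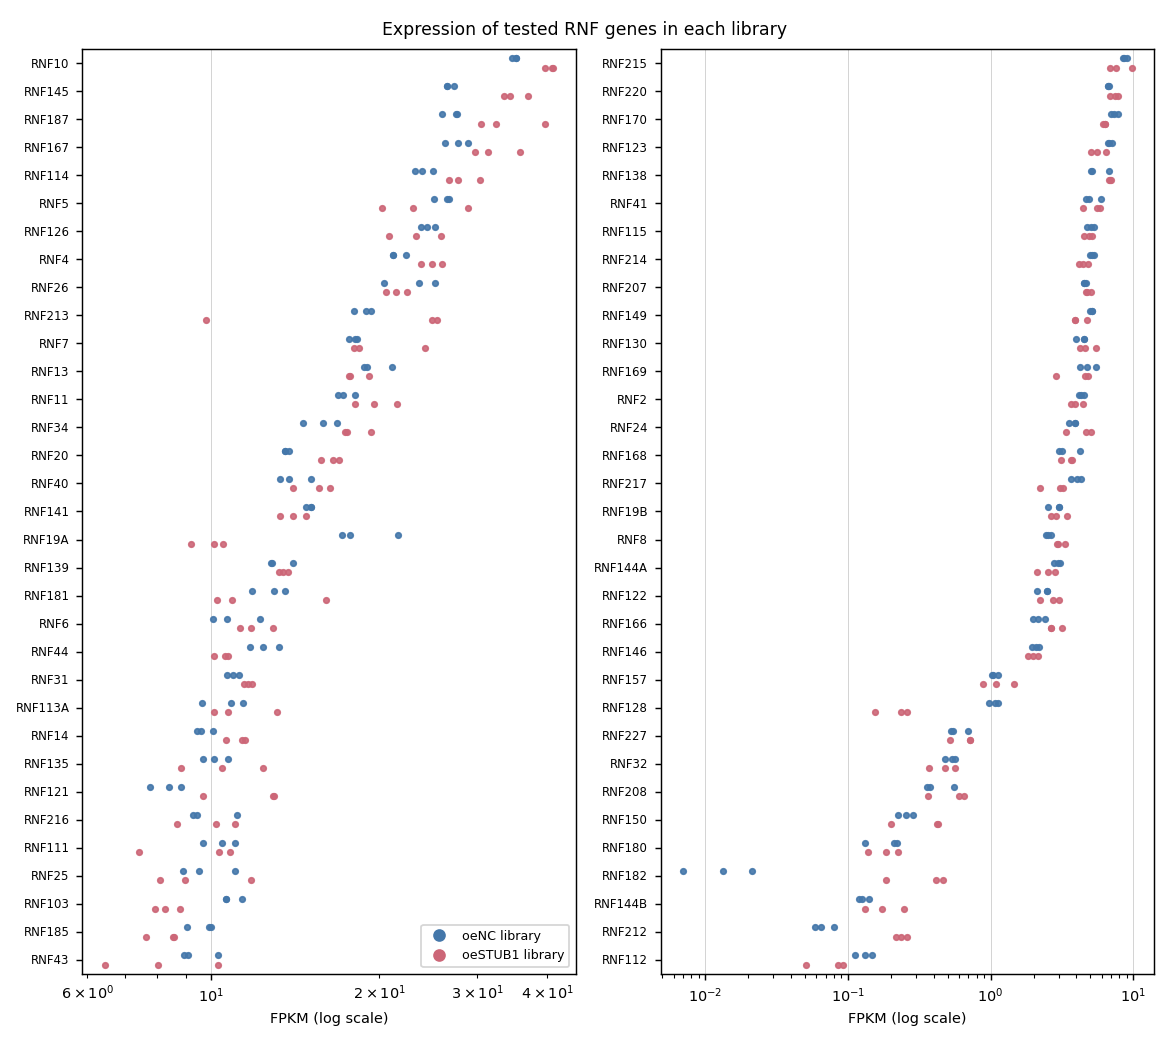
FPKM (x axis, log scale, with a range of its own in each panel) of 66 of the 67 tested RNF genes, ordered by their mean over the 6 libraries, with 1 point per library (blue oeNC, red oeSTUB1). For most genes the points of both groups lie close together, while RNF128 and RNF182 separate widely and 1 oeSTUB1 library of RNF213 lies far below the others.

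The 12 members below the limit were RNF125, RNF133, RNF148, RNF152, RNF165, RNF17, RNF175, RNF183, RNF186, RNF212B, RNF223 and RNF225. RNF17 and RNF212B are known from germ cells, and RNF133 and RNF148 from testis. Most gave few fragments, so a difference was not detectable at this depth. RNF175 had 0 fragments in each oeNC library and 1, 4 and 1 in the oeSTUB1 libraries. RNF165, also called Arkadia-like and known from motor neurons, had 29, 18 and 26 fragments in oeNC and 76, 35 and 36 in oeSTUB1. When genes below the limit were tested as well, the log2 fold change of RNF165 was 0.49 (SE 0.204, adjusted p = 0.22 from limma), and 0 of the 12 passed, with 0 at an unadjusted p under 0.05. RNF members as a whole took 0.302% to 0.314% of all fragments in oeNC and 0.329%, 0.287% and 0.328% in oeSTUB1 replicates 1, 2 and 3. Replicate 2 was thus below every oeNC library and the other oeSTUB1 libraries above them. RNF213, the member with the most fragments, had this order too, with 16083, 17225 and 17858 fragments in oeNC and 22459, 8323 and 21838 in oeSTUB1. It was not the only such member, as RNF24 had 1003, 1106 and 1185 against 1324, 914 and 1423. The share without RNF213 was not computed, so the order of these shares cannot be read as a trait of the whole family. Summed over the members, FPKM lay between 647 and 667 in the oeNC libraries and between 672 and 691 in the oeSTUB1 libraries, without overlap and with replicate 2 the highest. Neither sum was tested.

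Most RNF genes did not pass the test between oeSTUB1 and oeNC. Expression was compared with limma on log2(FPKM + 0.1) over all 15353 genes, with Benjamini-Hochberg adjustment and a threshold of 0.05, and fold changes on this scale understate those of genes with low FPKM. Of the 67 members 8 passed (11.9%), where 13.6% of all tested genes did. RNF182, RNF212, RNF121, RNF145 and RNF20 rose (5 members, 7.46%, against 7.01% of all tested genes), and RNF128, RNF19A and RNF103 fell (3 members, 4.48%, against 6.59%). A change of more than 1 on the log2 scale was also reached by RNF128, RNF182 and RNF212, 4.48% of the members against 5.2% of all tested genes. Of these, RNF182 and RNF212 reached the limit for testing only through the oeSTUB1 libraries. In 28 members (41.8%) all 3 values of one group lay above all 3 of the other, where 38.8% of all tested genes did so. The median log2 fold change of the members was 0.03 (interquartile range -0.13 to 0.20) and that of all tested genes 0.02 (-0.21 to 0.21). The shares of the family were thus near those of the whole table.

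RNF128, RNF19A and RNF103 were lower in oeSTUB1 cells. RNF128, also called GRAIL, is a transmembrane ligase of endosomes known for its role in T cell anergy, and its gene spans chrX:106693794-106796993 (GRCh38, plus strand). It was expressed at 1.07, 1.13 and 0.968 FPKM in oeNC replicates 1, 2 and 3 and at 0.155, 0.260 and 0.234 FPKM in oeSTUB1 replicates 1, 2 and 3. Behind these values stood 125, 132 and 120 fragments in oeNC and 18, 29 and 27 in oeSTUB1. All 3 oeNC libraries were thus above all 3 oeSTUB1 libraries, and the mean was 4.88-fold lower after STUB1 overexpression, the largest fall of the family. On the log2 scale it changed by -1.88 (SE 0.191, adjusted p = 0.00085 from limma), and the gene passed in 15 of 15 alternative settings (adjusted p 0.00030 to 0.0077).

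RNF19A, also called dorfin, is a RING-between-RING ligase known from protein inclusions, on chromosome 8 from 100257060 to 100336218 on the minus strand. Its expression was 17.8, 17.1 and 21.7 FPKM in oeNC and 10.5, 9.20 and 10.1 FPKM in oeSTUB1, the largest fall among members above 10 FPKM. No oeSTUB1 library reached the lowest control, and the mean was 1.90-fold lower. The fitted log2 fold change was -0.91 (SE 0.11, adjusted p = 0.0018 from limma), and RNF19A passed in 16 of 16 alternative settings (adjusted p 0.00031 to 0.0099). Its close relative RNF19B was at 2.86 ± 0.285 FPKM in the control and 2.99 ± 0.400 FPKM in oeSTUB1 (SD, n = 3 each), a difference within the spread. RNF19A overlaps SPAG1 of the other strand, and the strand setting of the counting is not given in the sources used here.

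RNF103, a ligase of the endoplasmic reticulum membrane, lies on chromosome 2 from 86603393 to 86623866 on the minus strand. It was at 10.7, 11.3 and 10.6 FPKM in oeNC and at 7.92, 8.29 and 8.81 FPKM in oeSTUB1, again without overlap. This was a log2 fold change of -0.38 (SE 0.082, adjusted p = 0.022 from limma), and RNF103 passed in 11 of 16 alternative settings. It missed the threshold without oeNC replicate 1 (adjusted p = 0.090), oeNC replicate 2 (0.12), oeNC replicate 3 (0.074) or oeSTUB1 replicate 1 (0.065), and with a replicate block (0.066), and over all settings its adjusted p from limma was 0.0080 to 0.12. The readthrough transcript RNF103-CHMP3, which shares its start, had at most 2 fragments in a library.

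RNF182, RNF212, RNF121, RNF145 and RNF20 were higher in oeSTUB1 cells. RNF182, a membrane-bound ligase best known from brain and innate immune cells, lies on chromosome 6 from 13924446 to 13980302 on the plus strand. It had 1, 3 and 2 fragments in oeNC replicates 1, 2 and 3 and 66, 56 and 26 fragments in oeSTUB1 replicates 1, 2 and 3. In FPKM this was 0.00703, 0.0211 and 0.0133 against 0.467, 0.412 and 0.186. The gene was thus close to absent in the control and low but clearly counted in every oeSTUB1 library, with the lowest value in replicate 3. RNF182 reached the limit for testing only through oeSTUB1 (mean 0.355 FPKM, against 0.0138 FPKM in oeNC). Without the filter its adjusted p was 0.010 from limma. Summed over the libraries and scaled to their totals, 148 against 6 fragments gave a 25.7-fold ratio (95% exact interval 11.5 to 71.2, counting error only). The fitted log2 fold change of 1.94 (SE 0.310, adjusted p = 0.0062 from limma) depends on the pseudocount, from 0.41 with 1 to 3.88 with 0.01, and RNF182 passed in 15 of 15 alternative settings (adjusted p 0.0038 to 0.028). MRPL35P1 overlaps RNF182 on the same strand, so reads of both may not be separable.

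RNF212, a SUMO ligase-like RING protein required for meiotic crossovers, lies on chromosome 4 from 1056250 to 1113562 on the minus strand. It was at 0.0586, 0.0652 and 0.0799 FPKM in oeNC and at 0.236, 0.259 and 0.218 FPKM in oeSTUB1, from 9, 10 and 13 fragments against 36, 38 and 33. The groups were well apart at this low level, with a 3.50-fold higher mean in oeSTUB1. RNF212 too reached the limit for testing only through oeSTUB1 (mean 0.238 FPKM, against 0.0679 FPKM in oeNC). Without the filter its adjusted p was 0.0096 from limma. RNF212 changed by 1.01 on the log2 scale (SE 0.216, adjusted p = 0.021 from limma) and passed in 10 of 15 alternative settings. It missed the threshold without oeNC replicate 1 (adjusted p = 0.082), oeNC replicate 2 (0.078), oeNC replicate 3 (0.055) or oeSTUB1 replicate 1 (0.061), and with a replicate block (0.060), with an adjusted p from limma of 0.0019 to 0.082 over all settings. Its change stayed just under 1 on the log2 scale (0.964 to 0.998) with median-ratio scaling, with a correction for gene length, and without oeNC replicate 1, oeNC replicate 2 or oeSTUB1 replicate 2. RNF212 shares its strand with the overlapping AC092535.2, so reads of both may not be separable.

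RNF145, which takes part in the sterol-dependent degradation of HMG-CoA reductase, lies on chromosome 5 from 159157409 to 159210053 on the minus strand. Its expression was 27.3, 26.5 and 26.5 FPKM in oeNC and 37.0, 33.4 and 34.4 FPKM in oeSTUB1. It was the most abundant of the 8 members that passed, and all oeSTUB1 libraries lay above all oeNC libraries. The change was 0.38 on the log2 scale (SE 0.073, adjusted p = 0.013 from limma), and RNF145 passed in 13 of 16 alternative settings, missing the threshold without oeNC replicate 1 (adjusted p = 0.067), 2 (0.083) or 3 (0.066), with a range of 0.0016 to 0.083. RNF139, another sterol-responsive ligase of the endoplasmic reticulum, was at 13.2 ± 0.703 FPKM in the control and 13.5 ± 0.247 FPKM in oeSTUB1 (SD, n = 3 each), within the spread.

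RNF121, a ligase of the Golgi and endoplasmic reticulum, lies on chromosome 11 from 71928701 to 71997597 on the plus strand. It was at 8.42, 8.83 and 7.77 FPKM in oeNC and at 12.92, 12.98 and 9.68 FPKM in oeSTUB1, where replicate 3 was the lowest but still above the control. The log2 fold change was 0.49 (SE 0.129, adjusted p = 0.043 from limma), and RNF121 passed in 7 of 16 alternative settings. It missed the threshold without each oeNC replicate (adjusted p = 0.13, 0.11 and 0.15 without replicates 1, 2 and 3), without oeSTUB1 replicate 1 (0.11), and in 5 other settings (0.052 to 0.075). RNF20, which with RNF40 attaches ubiquitin to histone H2B, lies on chromosome 9 from 101533851 to 101563344 on the plus strand. It was at 13.5, 13.6 and 13.8 FPKM in oeNC and at 16.97, 15.8 and 16.5 FPKM in oeSTUB1, again without overlap. The log2 fold change of RNF20 was 0.27 (SE 0.073, adjusted p = 0.049 from limma), and it passed in 5 of 16 alternative settings. Without oeNC replicates 1, 2 and 3 in turn its adjusted p was 0.19, 0.19 and 0.14, without oeSTUB1 replicates 1 and 3 it was 0.11 in both, and over all settings it was 0.0055 to 0.19.

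**Figure D2:**
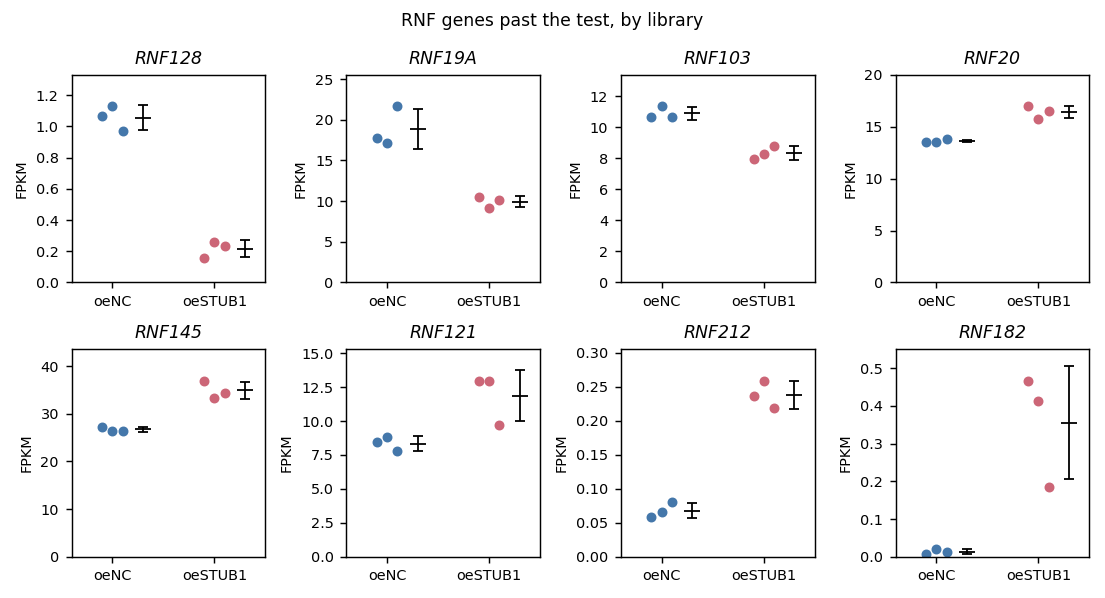
FPKM (y axes, linear and starting at 0, with a range of their own) of the 8 RNF genes past the test, with 1 point per library (replicates 1, 2 and 3 from left to right) and the mean ± SD (black, n = 3) beside them. RNF128, RNF19A and RNF103 were lower and RNF20, RNF145, RNF121, RNF212 and RNF182 higher in oeSTUB1, without overlap of the groups in any panel.

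The promoters of the 3 members that changed by more than 1 on the log2 scale are shown because the study asked about DNA methylation, which acts on CpG sites. Methylation was not measured in these libraries. Each sequence is the 250 bases before the RefSeq transcription start on GRCh38.p14, read 5′ to 3′ on the strand of the gene, with every CpG (the letters CG, which read the same on both strands) in capitals. The windows are chrX:106693588-106693837 (plus strand) for RNF128, chr6:13924196-13924445 (plus) for RNF182 and chr4:1113565-1113814 (minus) for RNF212.
RNF128: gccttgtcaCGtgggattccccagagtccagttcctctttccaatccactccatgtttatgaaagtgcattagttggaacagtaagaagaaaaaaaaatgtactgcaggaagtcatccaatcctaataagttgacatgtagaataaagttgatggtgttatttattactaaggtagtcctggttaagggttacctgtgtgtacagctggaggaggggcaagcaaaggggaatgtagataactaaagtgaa
RNF182: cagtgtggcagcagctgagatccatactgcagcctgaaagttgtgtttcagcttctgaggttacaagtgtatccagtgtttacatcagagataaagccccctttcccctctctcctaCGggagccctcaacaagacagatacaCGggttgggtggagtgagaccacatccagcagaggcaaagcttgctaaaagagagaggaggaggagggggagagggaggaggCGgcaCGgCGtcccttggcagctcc
RNF212: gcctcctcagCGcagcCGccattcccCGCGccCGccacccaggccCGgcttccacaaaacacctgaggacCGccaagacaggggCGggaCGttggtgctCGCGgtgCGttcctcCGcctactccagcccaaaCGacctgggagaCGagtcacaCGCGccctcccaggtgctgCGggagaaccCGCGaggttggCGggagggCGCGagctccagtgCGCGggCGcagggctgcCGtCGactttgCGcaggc
The RNF128 window held 1 CpG, the RNF182 window 5 and the RNF212 window 29. Of the 35116 promoters of the RefSeq table, 14.7% held at most 1, 38.1% at most 5 and 87.6% at most 29. RNF145 held 2, RNF121 14, RNF20 18 and RNF103 24, and the table has no entry for RNF19A. The members that passed thus lay on both sides of the median of 18 over the 66 members in the table. RNF128, RNF182 and RNF212 have further annotated starts (3, 5 and 13 in GENCODE release 29), and the values per gene do not show which start was used.

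Read by role, the 8 members that passed were spread over 5 groups. Of all tested genes 13.6% passed. The groups are small and were made by hand with earlier results known, so their counts are a description and were not tested. The chromatin and DNA damage ligases had 1 riser, RNF20, and no faller among 8, with a median log2 fold change of 0.16. RNF40, the partner of RNF20, was at 14.1 ± 0.919 FPKM in the control and 15.3 ± 1.21 FPKM in oeSTUB1 (SD, n = 3 each; adjusted p = 0.42 from limma). RNF2, the RING1B subunit of Polycomb repressive complex 1, was at 4.28, 4.15 and 4.52 FPKM in oeNC and at 4.43, 3.92 and 3.64 FPKM in oeSTUB1. Its groups overlapped, and the log2 fold change was -0.11 (SE 0.106, adjusted p = 0.52 from limma). RNF8, which starts the ubiquitin response at DNA double-strand breaks, had a change of 0.26 on the log2 scale (limma, adjusted p = 0.14) without overlap of the groups, and RNF4, a ligase for SUMO-modified proteins, one of 0.20 (adjusted p = 0.11).

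Among the 8 RING-between-RING ligases RNF19A fell and none rose. RNF217, a ligase of the iron exporter ferroportin, was at 3.65, 4.04 and 4.27 FPKM in oeNC and at 3.06, 2.23 and 3.23 FPKM in oeSTUB1, with replicate 2 the lowest. Its log2 fold change of -0.49 (SE 0.154) missed the threshold (adjusted p = 0.076 from limma), as it did in 12 of 16 alternative settings. The change was smaller without oeSTUB1 replicate 2 (-0.33) and with the length correction (-0.37). RNF217 passed with limma-voom (adjusted p = 0.033), quantile normalization (0.049), the length correction (0.021) and without oeSTUB1 replicate 2 (0.037), with a range over the settings of 0.021 to 0.22. RNF31, the catalytic subunit of the linear ubiquitin chain assembly complex, was at 10.96 ± 0.274 and 11.6 ± 0.187 FPKM in oeNC and oeSTUB1 (SD, n = 3 each; adjusted p = 0.47). The membrane ligases with a protease-associated domain had 1 faller, RNF128, among 8 tested of 10, with a median of -0.11. RNF43, which removes Frizzled receptors from the cell surface, was at 9.09, 8.93 and 10.3 FPKM in oeNC and at 8.03, 6.45 and 10.3 FPKM in oeSTUB1, and the groups overlapped (adjusted p = 0.42 from limma).

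The other membrane-anchored ligases were the largest group, with 13 tested of 16 and a median of -0.02, and RNF182, RNF121 and RNF145 were higher and RNF103 lower among them. Of the regulators of innate immunity (4 tested of 5), the ligases of growth factor, WNT, TGF-β and transcription control (8 of 9) and those of protein quality control, translation and cullins (6 of 6), none passed with limma or with limma-voom on recovered fragments, and 2, 2 and 1 had an unadjusted p under 0.05. Over the whole family 13 members had a higher and 9 a lower value at that unadjusted threshold (19.4% and 13.4%, against 16.0% and 13.7% of all tested genes). In these 3 groups the smallest adjusted p-values were those of RNF10 (0.079), RNF187 (0.081) and RNF114 (0.096 from limma), with log2 fold changes of 0.21, 0.33 and 0.23 and no overlap between oeNC and oeSTUB1. The tissue-restricted members had 1 riser, RNF212, among 3 tested. Of the 9 tested members without an assigned role none passed with limma or limma-voom, and RNF44, the 1 of them with an unadjusted p under 0.05, had a change of -0.24 on the log2 scale (limma, adjusted p = 0.091).

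**Figure D3:**
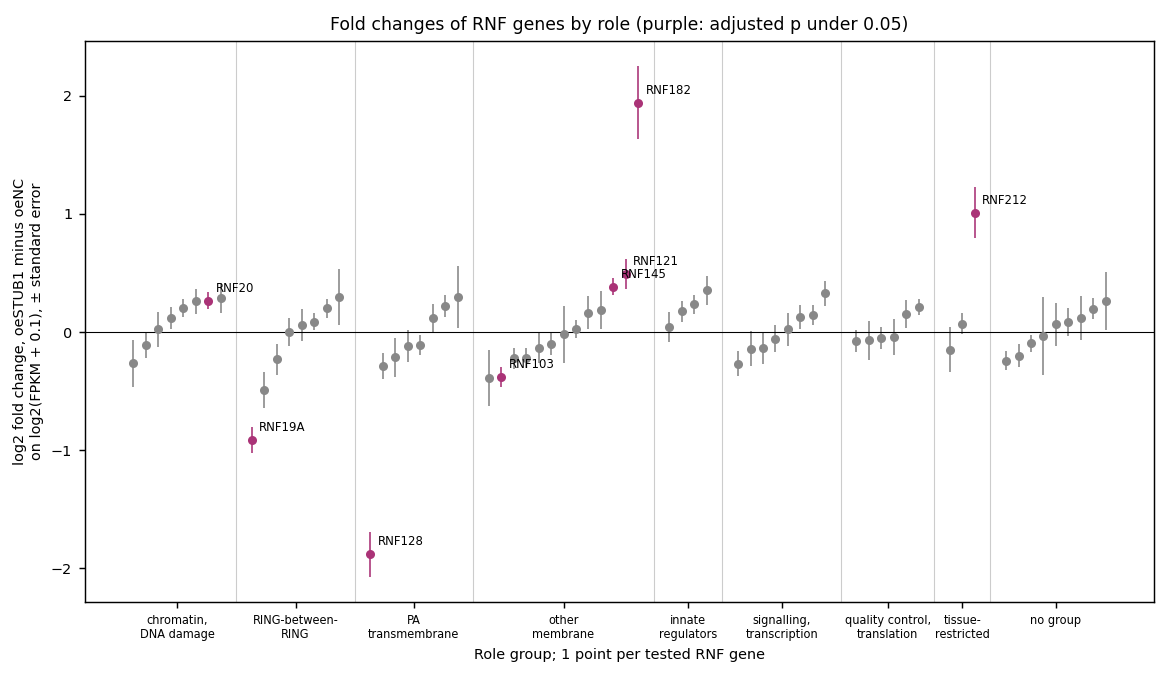
Fold change of each tested RNF gene (y axis, oeSTUB1 minus oeNC on log2(FPKM + 0.1), bars are the standard error from limma), grouped by role and ordered by value within a group. The 8 genes past the test are purple and named, and the other 59 lie between -0.49 and 0.35.

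Like the tested genes as a whole, the RNF genes varied more among the oeSTUB1 than among the oeNC libraries. The median SD of the members on the log2 scale was 0.085 in oeNC and 0.167 in oeSTUB1, and 0.074 in oeSTUB1 without replicate 2. This last SD is of replicates 1 and 3 only, so its size cannot be set directly against those of 3 libraries. For all tested genes the median SD was 0.091 in oeNC and 0.202 in oeSTUB1. The deviation of replicate 2 from the other oeSTUB1 libraries followed the length of the members, with a Spearman correlation of -0.60 over the 67 tested members and -0.56 over all tested genes, as a description of points from the same libraries. The 4 members under 2000 bases had a median deviation of 0.37 on the log2 scale and the 10 members of at least 8000 bases one of -0.41. All tested genes of these lengths had medians of 0.33 and -0.42. RNF213, the moyamoya disease gene and by its recovered length of 25682 bases the longest member, showed the deviation most. It was at 18.0, 19.3 and 18.9 FPKM in oeNC and at 25.4, 9.79 and 24.9 FPKM in oeSTUB1, so that replicates 1 and 3 lay above the control and replicate 2 below it. With all libraries its log2 fold change was -0.03 (SE 0.330, adjusted p = 0.96 from limma), and without replicate 2 it was 0.42 (adjusted p = 0.0016).

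**Figure D4:**
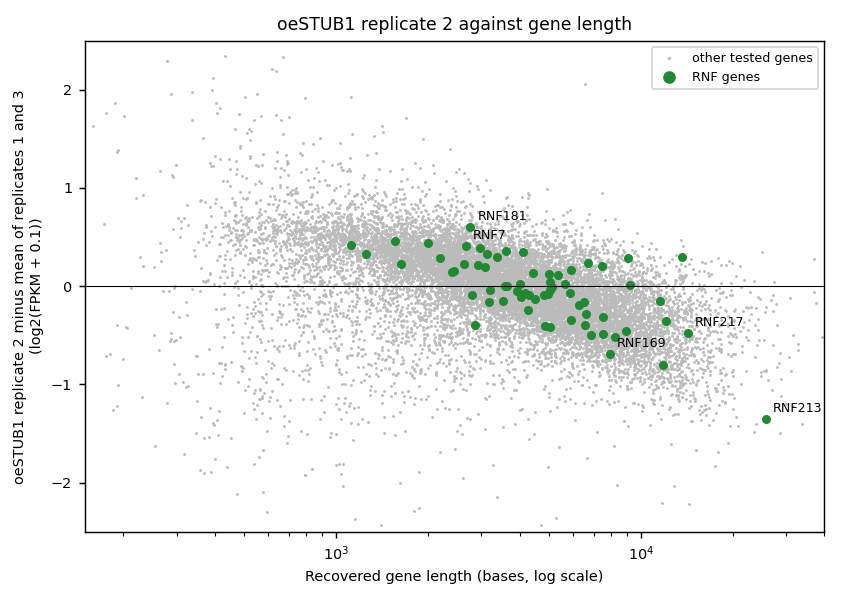
Difference between oeSTUB1 replicate 2 and the mean of replicates 1 and 3 (y axis, log2(FPKM + 0.1)) against the gene length recovered from the table (x axis, bases, log scale) for RNF genes (green) and the other tested genes (grey). Of the 10 RNF genes of at least 8000 bases 7 lie below 0, RNF213 and RNF217 among them, the 4 under 2000 bases lie above 0, and 14 other genes fall outside the axes.

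Without oeSTUB1 replicate 2, 20 members passed, 11 higher and 9 lower (29.9%, against 26.8% of all tested genes, 14.8% being higher and 12.0% lower). The 8 members above were among them, with RNF10, RNF114, RNF187, RNF213, RNF24 and RNF4 joining the higher and RNF149, RNF181, RNF215, RNF217, RNF44 and RNF5 the lower ones. RNF5 was at 26.4, 26.7 and 25.1 FPKM in oeNC and at 20.3, 28.8 and 23.0 FPKM in oeSTUB1, and RNF181, a small RING ligase, at 13.6, 12.9 and 11.9 FPKM against 10.2, 16.1 and 10.9 FPKM. In both, replicates 1 and 3 lay below every oeNC library and replicate 2 above them. RNF24, a membrane ligase, was at 3.52, 3.89 and 3.93 FPKM in oeNC and at 4.68, 3.36 and 5.07 FPKM in oeSTUB1, with the opposite order. A correction of each library for gene length, chosen after the data were seen, gave 7 higher and 5 lower members (17.9%, against 21.6% of all tested genes, 10.9% being higher and 10.7% lower). RNF10, RNF187, RNF217 and RNF5 passed with that correction. RNF213 (log2 fold change 0.12, adjusted p = 0.63 from limma), RNF114, RNF149, RNF181, RNF215, RNF24, RNF4 and RNF44 did not.

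**Figure D5:**
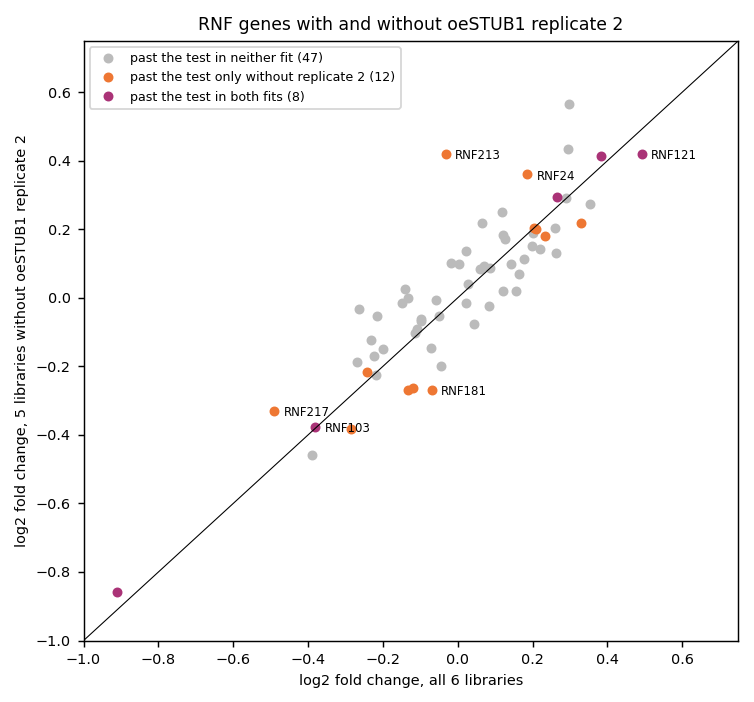
Log2 fold change of each RNF gene with all 6 libraries (x axis) and without oeSTUB1 replicate 2 (y axis), with the line of equal values; purple genes passed in both fits (8), orange ones only without replicate 2 (12) and grey ones in neither (47). RNF213 and RNF24 lie above the line and RNF181 below it, and RNF128, RNF182 and RNF212 lie outside the axes.

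On chromosome 2 the median log2 fold change of 1031 tested genes was -0.21, and 77.3% of them had negative values. All 5 tested RNF genes of this chromosome had negative values too. These were RNF103, RNF144A, RNF149, RNF181 and RNF25, with a median of -0.23, and RNF103 alone passed. On chromosome 9, which holds RNF20, the median of 604 tested genes was 0.16. Relative to these medians the log2 fold change of RNF103 was -0.17 and that of RNF20 was 0.11. The part of the chromosome-wide shifts in the values of these genes was not tested. The medians of the chromosomes of the other 6 members that passed lay between -0.0017 and 0.066.

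The partner genes of the RNF ligases gave a similar share of changes. Of 83 genes on 7 lists 78 were tested, and 5 were higher and 3 lower (10.3%, against 13.6% of all tested genes). Of the 18 Polycomb partners of RNF2, CBX2, a chromodomain subunit, rose (log2 fold change 0.40, adjusted p = 0.034 from limma). None of the 5 partners of RNF31 in the linear chain complex and none of the 9 H2B ubiquitination partners of RNF20 and RNF40 passed (smallest adjusted p 0.38 and 0.12 from limma), with 0 and 1 of them at an unadjusted p under 0.05 and 0 with limma-voom. Among 14 double-strand-break partners of RNF8 and RNF168, ABRAXAS1, a scaffold of the BRCA1-A complex, fell by 0.44 (adjusted p = 0.024 from limma). Among 6 tested RIG-I partners of RNF135 and RNF125, DDX58, the RIG-I sensor itself, rose from 1.30 to 2.02 FPKM and TRIM25, another of its ligases, from 13.8 to 18.8 FPKM (adjusted p = 0.021 and 0.025 from limma). Of the 19 E2 enzymes UBE2N and UBE2G2 rose, by log2 fold changes of 0.33 and 0.30 (adjusted p = 0.038 and 0.033 from limma).

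The partners of RNF43 held the largest fall of these lists. RSPO3, the secreted R-spondin that keeps RNF43 and ZNRF3 off Frizzled receptors, was at 51.2, 50.3 and 50.3 FPKM in oeNC and at 29.4, 26.99 and 22.6 FPKM in oeSTUB1, with no overlap. Its log2 fold change was -0.95 (SE 0.103, adjusted p = 0.0012 from limma), and RSPO3 passed in 16 of 16 alternative settings. FZD5, a Frizzled receptor on chromosome 2, fell by 0.50 (adjusted p = 0.018). The other 5 tested partners of RNF43 did not pass, among them ZNRF3 and LGR4. Of the 8 partner genes that passed, RSPO3 alone did so in every alternative, and the other 7 passed in 6 to 13 of 16 and missed the threshold without each oeNC replicate (adjusted p up to 0.16 over the settings).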

How the data were processed

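The 6 RNA-seq libraries, 3 oeNC and 3 oeSTUB1, were grouped by the sample labels. Expression was deposited by the authors as FPKM (fragments scaled to gene length and library total) in a single table of 23569 gene symbols. Value columns that belonged to no sample numbered 0. Per the submitters' processing notes, fastp 0.20.1, HISAT2 2.1.0, HTSeq 0.11.2, R 3.2.0, DESeq2 1.22.2 and GRCh38.p13 were used; the gene annotation and the strand setting are not given in the sources used here.

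FPKM of each gene moved in whole steps, from which fragments, lengths and library totals were recovered for 23569 genes (100.0%), with a largest difference of 4.9e-06 FPKM. A gene's fragments may be understated by a shared factor. Listed genes held 99.7% of each total. Replicates differed by more than sampling noise (chi-square per degree of freedom 3.48 to 82.6), so none was treated as a copy. Intervals and floors (3 fragments) cover counting error only.

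The 15353 genes that reached 0.1 FPKM on average were compared with limma 3.58.1 in R 4.3.3 (intensity trend, two-sided, no covariate) on log2(FPKM + 0.1), with Benjamini-Hochberg adjustment. Recovery and fits were tested on simulated data. The fit was repeated with a pseudocount of 1 or 0.01, without the filter or with one at 1 FPKM, and with median-ratio scaling, quantile normalization, eBayes without trend, a replicate block, limma-voom with TMM on recovered fragments and leaving out each library. A lowess correction for gene length was added after the data were seen. Replicate numbers carried no stated pairing, and same-numbered libraries did not deviate together.

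Members, roles and partner lists were chosen with earlier results of these data known. Named with values were members past the threshold, the 5 most abundant, RNF2, members past it under an alternative, partner genes past it and STUB1; RNF19B, RNF139, RNF165, RNF175, ZNRF3, LGR4, and further members of a role group or chromosome were named after their values were seen. Values of 1 tested member are not reported here, though the counts include it. Roles were assigned by hand from general knowledge. Coordinates are from GENCODE release 29 on GRCh38, and chromosomes and promoters from RefSeq on GRCh38.p14, whose promoter table matched 66 of 79 members. Figures were drawn with matplotlib 3.10.9 in Python 3.11.15.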

Additional observations from a re-analysis of the deposited data

How the results depend on the processing

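The number of RNF genes with higher expression, 5, was 3 with a filter at a mean of 1 FPKM, median-ratio scaling, quantile normalization, eBayes without trend, a replicate block or limma-voom, and 1 to 11 with 1 library left out, 1 without any single oeNC replicate, 2 without oeSTUB1 replicate 1 and 11 without oeSTUB1 replicate 2. The number with lower expression, 3, was 2 to 9 with 1 library left out, 9 without oeSTUB1 replicate 2, 5 with the length correction, and 4 with quantile normalization or limma-voom, which added RNF217. For the partner genes, 5 higher became 3 with median-ratio scaling, quantile normalization or limma-voom, 2 without trend, 0 with the replicate block, 9 with the length correction and 0 to 11 with 1 library left out. The 3 lower partner genes became 7 with the length correction and 1 to 8 with 1 library left out. All genes tested gave 1076 higher (477 to 2274 with 1 library left out, 1675 with the length correction) and 1012 lower (456 to 1838, and 1647). For STUB1 the log2 fold change of 1.03 stayed past the threshold in every setting (0.93 to 1.08).

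RNF128, RNF182 and RNF19A passed in every setting in which they could be tested. The filter at a mean of 1 FPKM left RNF128, RNF182 and RNF212 untested. With a pseudocount of 1, RNF128, RNF182 and RNF212 changed by under 1 on the log2 scale (-0.76, 0.41 and 0.21). RNF212 was also under 1 in 5 other settings, its lowest value there being 0.964. The sign of the log2 fold change turned in at least 1 setting for 16 of the 67 tested members, 0 of them among the 8 that passed, and their log2 fold changes with all libraries were at most 0.14 in size. Among the members named in the report it turned for RNF139 (-0.0085) and RNF213 (0.12) with the length correction, and for RNF168 with median-ratio scaling (-0.0061) and limma-voom (-0.0083). With 1 library left out it turned for RNF135 (-0.077 to 0.16), RNF168 (-0.069 to 0.17), RNF181 (-0.27 to 0.054), RNF19B (-0.043 to 0.135), RNF213 (-0.26 to 0.42) and RNF25 (-0.20 to 0.070). The cause of these changes was not tested. Some of the settings use fewer libraries or genes.

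Same-numbered oeNC and oeSTUB1 libraries correlated at -0.049, -0.052 and 0.062 in their deviations from the group means. These values cannot show whether same-numbered libraries were prepared together, which the sources used here do not state. The replicate block, which treats them as belonging together, gave 3 higher and 2 lower RNF genes. The 3 libraries per group and the fragment numbers limit what could be seen for the 12 members below 0.1 FPKM.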
